A study of Mus musculus with 13 samples.

Results

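The comparison described here set 3 RNA libraries labelled NLS t48 against 3 labelled NLS t0. They are 6 of the 13 libraries of the series and were chosen by their titles, with lines 6, 7 and 16 on each side, so each line served as its own reference. All 13 libraries hold poly(A) RNA of cultured mouse cell lines labelled melanoma. By the series' design, doxycycline, an antibiotic used to switch on an inducible promoter, induces soluble adenylyl cyclase in one compartment of the cell, and the titles of these lines carry NLS. The t0 libraries are labelled as having received no doxycycline and their sAC micro-domain is given as none. The t48 libraries are labelled as 48 h in doxycycline with the micro-domain nuclear. The remaining libraries are NLS t6, from the same 3 lines after 6 h, and the LacZ lines 10 and 12 at t0 and t48, which serve here only as a reference. The LacZ t48 libraries also carry the micro-domain label nuclear, against their titles. The construct, its promoter and how many cultures stand behind each line were not analysed here, and each p-value therefore reflects the spread among these libraries, which may be technical.

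Soluble adenylyl cyclase (sAC, encoded by Adcy10) makes the second messenger cyclic AMP in response to bicarbonate and calcium, rather than to G proteins. Cyclic AMP activates protein kinase A (PKA), which phosphorylates the transcription factor CREB, and phosphodiesterases break it down again. CREB acts with its CRTC coactivators at the cyclic AMP response element (CRE) of target promoters. In melanocytes this pathway is known for raising Mitf and the pigment enzymes.

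Adcy10 did not follow the time labels. Lines 6, 7 and 16 had 366, 199 and 0.671 CPM (reads per 1e+06 of a library) in the libraries labelled t0 and 339, 199 and 1.22 CPM in those labelled t48. Line 6 was the highest at both labels and line 16 lay near 1 CPM at both, so the order of the lines was the same and the groups overlapped (log2 fold change -0.04, SE 0.07, adjusted p = 0.684). The 95% Poisson intervals, which cover counting error only, were 358 to 374 CPM against 331 to 347 CPM in line 6. Each LacZ library had between 0 and 3 Adcy10 reads. Reads from the construct itself were not analysed here. Every "higher" or "lower" here is therefore a difference between libraries labelled t48 and libraries labelled t0.

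The label melanoma was checked against lineage markers. Of 15 pigment-lineage genes, 12 stayed under 1 CPM in all 6 libraries and 6 had no reads, among them Tyrp1, Mlana and Kit. Mitf, the master factor of melanocytes, lay at 3.41, 4.21 and 4.17 CPM at t0 and 3.48, 3.47 and 2.75 CPM at t48, with overlapping groups and no call (adjusted p = 0.202). Pax3, a neural crest factor, was present at 63.1, 63.4 and 48.4 CPM at t0 and 87.3, 90.4 and 72.2 CPM at t48 and rose (log2 fold change 0.52, SE 0.05, adjusted p = 1.20e-07). The pigment list summed to 28.0 to 34.7 TPM (transcripts scaled for length) at t0 and 41.2 to 49.8 TPM at t48. The 10 fibroblast markers summed to 8107 to 8837 TPM at t0 and 8115 to 8240 TPM at t48. Of these markers, 4 stayed under 1 CPM in all 6 libraries and 1 had no reads. Most of the t0 sum came from S100a4, Col1a1 and Col3a1, at means of 5433, 1762 and 1113 TPM. Col1a1 and Col3a1 were higher at t48 and S100a4 and Pdgfra lower (Pdgfra lost its call without line 7, without line 16 and without the cell line term, the last at adjusted p = 0.64). Of 10 leukocyte markers, 9 stayed under 1 CPM in all 6 libraries and Ptprc had no reads. Of 8 endothelial markers 7 stayed under 1 CPM, and of 8 keratinocyte markers 6 did. The part of other cell types in the results was not tested beyond these levels.

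At an adjusted p below 0.05 in edgeR's quasi-likelihood test, 5046 of 11687 genes (43.2%) differed between the labels. Of these 2595 were higher (22.2%) and 2451 lower (21%). Large changes ran mostly one way: 434 genes (3.71%) were at least 2-fold higher and 82 (0.702%) at least 2-fold lower. Of the called genes 5000 (99.1%) had the same direction in all 3 lines. The test favours genes whose lines agree, so this share is not independent of the calls. In 2521 genes (21.6%) all t48 libraries lay above all t0 libraries, and in 2348 (20.1%) all lay below. Without the cell line term in the model 3302 genes were called, 1832 of them higher, and 3292 were among those of the fit with it. The 6 libraries held 18902460 to 22584628 estimated reads each.

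Part of this difference ran along chromosomes. The median log2 fold change over the tested genes was 0.20 on chromosome 1, 0.14 on chromosome 2 and 0.23 on chromosome 7. On the other 17 nuclear chromosomes it lay between -0.10 and 0.02. Stretches of these were shifted too: over windows of 40 neighbouring tested genes the highest median was 0.27 on chromosome 6 and 0.19 on X. The lowest such median on chromosome 2 was -0.0006. On chromosome 7, over genes of mean CPM 10 or more, the within-line medians were 0.19, 0.24 and 0.21 in lines 6, 7 and 16, so the 3 lines shared the shift. On chromosomes 1, 2 and 7 together 49.5% of 2519 tested genes were called higher and 5.36% lower, against 14.7% higher and 25.2% lower among the 9168 genes elsewhere. These 3 chromosomes therefore held 1246 of the 2595 genes called higher. The median over their genes of the level relative to each gene's mean over all libraries, less the same median over the other chromosomes, stood at -0.093, -0.100 and -0.097 (log2) in the t0 libraries of lines 6, 7 and 16 and at 0.137, 0.133 and 0.143 in the t48 libraries. These 3 chromosomes were picked for their median in this same contrast, so the values are a description with no test. The chromosomes had different patterns at t6, given here as each chromosome's median relative level in a library less that of the library's median chromosome. On chromosome 7 the t6 libraries, at 0.123 to 0.162, were above the t48 libraries of their lines, at 0.084 to 0.129. On chromosome 2 they were at -0.067 to -0.057, below the t0 libraries, at -0.066 to -0.042, in each line. On chromosome 1 they lay between the labels in each line, at 0.012 to 0.049. The t6 libraries also stood at 0.228 to 0.2805 on chromosome 13, where t0 and t48 were at -0.109 to -0.006. The LacZ lines had median log2 fold changes of 0.00, 0.06 and 0.04 on chromosomes 1, 2 and 7 and their own negative medians on chromosomes 3, 5, 8 and 12. A difference in chromosome copy number between the cells behind the labels and an effect of doxycycline cannot be told apart with these libraries, and copy number was not tested. List counts below are given with the share that lies off chromosomes 1, 2 and 7 where this bears on them. Counts over whole lists are to be read beside the 22.2% called higher and 21% called lower over all genes tested. Counts off these 3 chromosomes are to be read beside the 14.7% higher and 25.2% lower among the 9168 genes elsewhere.

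**Figure D1:**
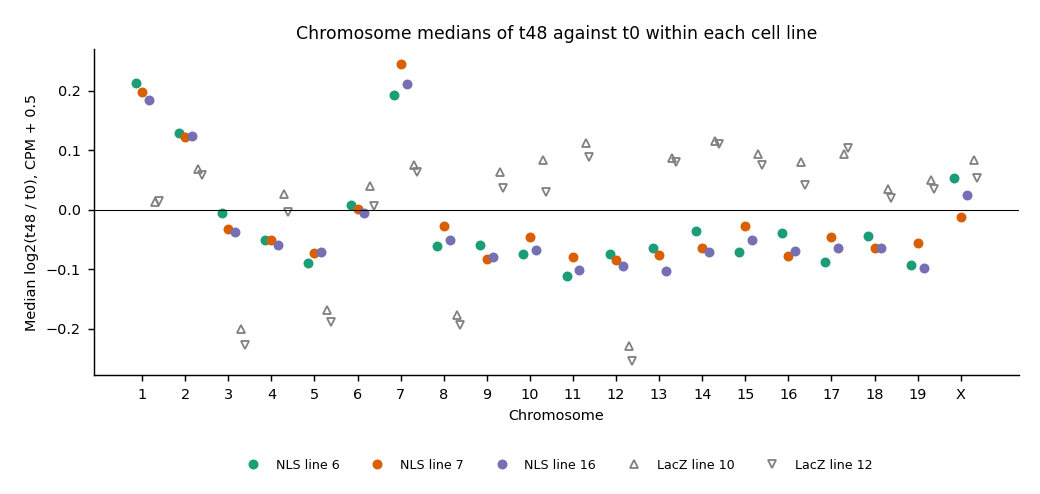
Median log2 ratio of t48 to t0 CPM (with 0.5 added) over the genes of each chromosome with mean CPM of 10 or more, by cell line (x axis: chromosome; filled circles: the 3 NLS lines; open triangles: the 2 LacZ lines). In all 3 NLS lines chromosomes 1, 2 and 7 lie above the others, and both LacZ lines lie low on chromosomes 3, 5, 8 and 12.

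The promoters of 4 gene lists were searched for the elements through which their pathways are known to act, and a few are shown because the counts of those lists carry the account below. The promoters are those of RefSeq for GRCm38.p6, and 250 bases before each start were searched on both strands. Each window is printed 5′ to 3′ on the strand of its gene, with the element and any overlapping or second copy in capitals. The CRE was searched as TGACGTCA. It was found in 3 of 20 cAMP and CREB target genes with a promoter (15%), against 1.77% of all 27025 genes with one and 1.55% of all 32851 promoters, and in 0 of 16 circadian clock genes. The first of them, at chr1:134079274-134079361 on the minus strand, precedes Btg2, an antiproliferative gene that was higher at t48. The second, at chr5:91139498-91139585 on the plus strand, precedes Areg, an EGF-family ligand that was lower, and the third, at chr17:26508568-26508655 on the minus strand, precedes Dusp1, a phosphatase that was not called. The same 8 letters thus stood before a gene in each class:
Btg2: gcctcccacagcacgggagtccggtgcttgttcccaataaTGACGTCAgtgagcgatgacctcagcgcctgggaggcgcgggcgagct
Areg: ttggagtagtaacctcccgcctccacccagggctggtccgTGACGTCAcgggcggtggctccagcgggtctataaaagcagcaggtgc
Dusp1: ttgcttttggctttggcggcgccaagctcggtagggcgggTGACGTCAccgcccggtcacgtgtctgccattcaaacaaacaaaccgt
The interferon-stimulated response element (ISRE) was searched as 2 copies of GAAA with 2 bases between them, or of TTTC on the other strand. It was found in 14 of 27 interferon-stimulated genes with a promoter (51.9%), against 3.46% of all genes and 2.98% of all promoters, and 9 of the 14 were called lower and none higher. In the whole list 20 of 35 were called lower, or 8 without the cell line term, against 21% of all genes tested. Of the 14, Oas3 (chr5:120777685-120777774, minus strand), Gbp7 (chr3:142530243-142530332, plus strand), Bst2 (chr8:71537553-71537642, minus strand) and Ifit1 (chr19:34640745-34640834, plus strand) encode antiviral effectors that were lower at t48, and Socs1 (chr16:10785570-10785659, minus strand), a feedback inhibitor of cytokine signalling, was not called:
Oas3: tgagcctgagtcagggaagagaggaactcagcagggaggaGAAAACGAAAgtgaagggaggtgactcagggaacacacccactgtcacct
Gbp7: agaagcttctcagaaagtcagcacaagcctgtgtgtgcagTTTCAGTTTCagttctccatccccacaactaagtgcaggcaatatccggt
Bst2: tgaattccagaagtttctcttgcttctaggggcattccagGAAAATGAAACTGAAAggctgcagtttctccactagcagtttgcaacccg
Ifit1: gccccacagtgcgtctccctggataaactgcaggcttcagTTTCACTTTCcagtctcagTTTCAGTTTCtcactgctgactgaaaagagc
Socs1: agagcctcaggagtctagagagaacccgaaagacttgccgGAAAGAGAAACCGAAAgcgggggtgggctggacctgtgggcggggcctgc
A sterol regulatory element, searched as TCACNCCAC on both strands, stood in 1 of 19 sterol genes with a promoter (5.26%), against 1.23% of all genes and 1.05% of all promoters. It precedes Hmgcs1 (chr13:119690174-119690262, plus strand), an early enzyme of the mevalonate pathway that was lower at t48:
Hmgcs1: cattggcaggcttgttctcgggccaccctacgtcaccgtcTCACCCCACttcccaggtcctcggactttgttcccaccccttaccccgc
A match describes letters in the window and is no evidence of binding in these cells. The lists were drawn from textbook knowledge of these pathways, so shares above those of all genes are no result of these libraries.

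The largest differences were genes near absent under one label and present under the other, and nearly all of them were present at t48. By a rule chosen after the values were seen, under 0.3 CPM in every t0 library and at 1 CPM or more in every t48 library, there were 49 such genes. With the labels exchanged there were 0. A limit of 0.2 CPM gave 32 and 0, and a limit of 0.5 CPM gave 77 and 1. They lay on 19 chromosomes or scaffolds, 11 of them on chromosomes 1, 2 and 7, with t48 means of 1.14 to 23.3 CPM and a median of 2.43 CPM. Of the 49, 16 were also at 1 CPM or more in all t6 libraries and 10 in all LacZ libraries, while 25 were under 0.3 CPM in all LacZ libraries.

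Tshz3, a zinc finger transcription factor of mesenchymal development on chromosome 7, had no reads at t0 and 5.84, 5.91 and 5.93 CPM at t48. Against a floor of 3 counts per library this was at least 43.4-fold higher, and the 3 lines lay within 0.1 CPM of each other. Adam23, a catalytically inactive ADAM protein that binds integrins, rose from 0.133, 0.0434 and 0 CPM to 21.8, 26.5 and 21.6 CPM (log2 fold change 8.46, SE 0.25, adjusted p = 2.01e-13). Slc8a1, the sodium-calcium exchanger of the plasma membrane, rose from 0.0886, 0.174 and 0.0479 CPM to 14.2, 16.5 and 12.9 CPM (log2 fold change 7.03, SE 0.23, adjusted p = 1.36e-13). In each of these genes every t48 library was over 12 CPM or, for Tshz3, over 5 CPM, and no t0 library passed 0.2 CPM. Nos1, the neuronal nitric oxide synthase, rose from 0.753, 0.651 and 0.911 CPM to 34.2, 32.9 and 30.7 CPM (log2 fold change 5.40, SE 0.14, adjusted p = 1.02e-14). It was detected in all t0 libraries and its groups were far apart. The X-linked genes Armcx2 and Armcx3, which encode armadillo-repeat proteins of mitochondria, both rose, Armcx2 from 0.0443, 0.217 and 0.0959 CPM to 13.2, 12.9 and 12.2 CPM and Armcx3 from 4.47, 4.13 and 3.98 CPM to 25.2, 23.1 and 23.6 CPM. Of the 6 tested Armcx, Bex and Tceal genes 5 were higher and none lower.

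Prelid2, Spats2l, Zfp521, Cachd1, Zfp532, Vat1l, Adamts9, Abcg2 and Dpep1 made up the other 9 of the 14 largest increases. Their fitted log2 fold changes of 5.20 to 7.94 rest on t0 levels close to 0 and depend on how few reads are treated. Without line 6 that of Zfp521 went from 7.09 to 10.24, and without line 7 that of Adamts9 from 5.73 to 9.19. Abcg2, a multidrug efflux transporter, was at 0.177, 0.217 and 0.0479 CPM at t0 and 9.696, 6.58 and 8.04 CPM at t48. Among the 49 genes, chosen here after their values were seen, were also Lpl (lipoprotein lipase), Pde3a (a phosphodiesterase that breaks down cyclic AMP), Fgfr2 (an FGF receptor), Ror1 (a Wnt receptor) and Inhbb (an activin subunit). Pde3a was at 0.0886, 0.261 and 0.144 CPM at t0 and 2.73, 2.67 and 1.91 CPM at t48. Inhbb was at 0.0886, 0.0869 and 0.192 CPM at t0 and 1.79, 2.18 and 2.699 CPM at t48, and was under 0.3 CPM in all LacZ libraries.

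**Figure D2:**
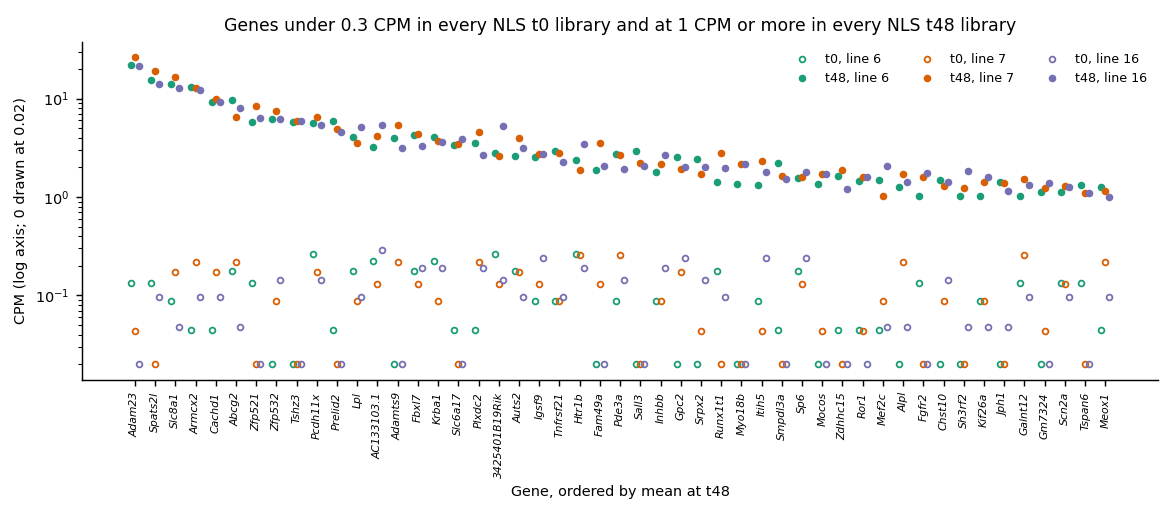
CPM of the 49 genes in each NLS library on a log axis (open circles: t0; filled circles: t48; colours: cell lines; 0 is drawn at 0.02 CPM). Each t48 circle lies at 1 CPM or above and each t0 circle under 0.3 CPM, with the 3 lines close together.

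The decreases were smaller and left the transcripts detectable. Unc5c, a netrin receptor, fell from 8.86, 13.9 and 8.96 CPM to 0.8002, 0.978 and 0.529 CPM (log2 fold change -3.75, SE 0.17, adjusted p = 1.20e-11). Slurp1, a secreted Ly6-family protein, fell from 35.8, 17.8 and 31.4 CPM to 5.55, 3.47 and 4.87 CPM (log2 fold change -2.59, SE 0.13, adjusted p = 6.55e-10). Line 7 was the lowest at both labels for Slurp1 and the groups did not overlap. Hgf, the ligand of the receptor Met, fell from 3.77, 6.43 and 2.16 CPM to 0.8002, 0.978 and 0.423 CPM, and Met fell too, from 186, 262 and 203 CPM to 99.7, 137 and 97.2 CPM (log2 fold change -0.96, SE 0.06, adjusted p = 6.04e-09). Etv1, an ETS factor downstream of ERK signalling, fell from 4.39, 13.7 and 5.75 CPM to 1.22, 2.71 and 1.22 CPM (log2 fold change -2.18, SE 0.16, adjusted p = 3.40e-08). Line 7 had the highest Etv1 at both labels, and each line fell on its own. Has1 (a hyaluronan synthase), Dynap, Blnk (a B cell adaptor), Dock8, Msln (mesothelin), Prkg1 (the cyclic GMP kinase), Adgrl3, Oasl1, Abi3bp and Tspan7 were the other 10 of the 14 largest decreases. Their log2 fold changes lay between -2.97 and -1.97. The fitted value of Has1 went from -2.97 to -3.61 without the t48 library of line 6.

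The 8 largest gains by level, in TPM, were followed up. Acta2, smooth muscle actin, rose from 585 ± 209.7 to 1777 ± 340.2 TPM (means ± SD, n = 3). Col3a1 went from 1113 ± 27.9 to 2024 ± 63.8 TPM and Fn1, fibronectin, from 914 ± 105 to 1474 ± 48.6 TPM. The t48 libraries lay above the t0 libraries in each of these genes. Ftl1, a ferritin chain, gained more than Fn1, from 4609 ± 200.4 to 5450.0 ± 479.9 TPM. Col1a1, Serpinh1 (the collagen chaperone), Tuba1a and Tmsb10 completed the 8. Of these gains, Col3a1 and Fn1 lie on chromosome 1 and Ftl1 and Serpinh1 on chromosome 7, where many genes were called higher. Ftl1 had overlapping groups, and its adjusted p was 0.069 without the cell line term. It also lost its call without line 7 or line 16. The largest losses were S100a4, from 5433 ± 296 to 3523 ± 81.5 TPM, and S100a6, from 2095 ± 84.2 to 1467 ± 16.4 TPM, both calcium-binding proteins of motile cells. Vim, Tpt1, Anxa2, Fth1, Spp1 and Esd followed. Vim and Fth1 lost their calls without the cell line term (adjusted p = 0.119 and 0.0941). Vim also lost it without line 16, and Spp1 and Col1a1 theirs when only the 6 compared libraries were fitted (adjusted p = 0.0903 and 0.0619).

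Most collagen genes were higher. All 9 tested fibrillar collagen genes were called higher, and with the other collagens 15 of 19 were higher and 2 lower (median log2 fold change 0.78, against -0.01 over all genes tested and 22.2% called higher among them). Off chromosomes 1, 2 and 7 the counts were 11 higher and 2 lower of 15. Col3a1, the chain of type III collagen, stood at 2888, 2693 and 2970.0 CPM at t0 and 5179, 5634 and 5229 CPM at t48. Its t48 libraries lay close together, above every t0 library (log2 fold change 0.91, SE 0.05, adjusted p = 1.14e-10). Col5a3, a type V chain that nucleates fibrils, rose from 21.9, 18.2 and 21.3 CPM to 43.2, 40.1 and 46.7 CPM, and Col6a2, of the beaded type VI filaments, from 149, 164 and 150.1 CPM to 249.5, 331 and 265 CPM. Both were higher in all 3 lines. The 2 that fell were Col18a1, whose fragment is endostatin, from 95.6, 115 and 106 CPM to 41.2, 46.1 and 41.9 CPM (log2 fold change -1.29, SE 0.04, adjusted p = 3.56e-13), and Col8a1, from 111, 72.7 and 117 CPM to 60.5, 44.1 and 61.1 CPM.

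Enzymes that process collagen rose as well, with 16 of 24 called higher and 3 lower (14 and 3 of 22 off chromosomes 1, 2 and 7). Adamts3, which cleaves the N-terminal propeptide of procollagen, went from 0.487, 1.13 and 0.575 CPM to 8.61, 12.2 and 8.57 CPM (log2 fold change 3.75, SE 0.21, adjusted p = 6.55e-10). Bmp1, which cleaves the C-terminal propeptide, went from 129, 112 and 124 CPM to 209.6, 181 and 228 CPM, and Plod2, a lysyl hydroxylase, from 181, 175 and 181 CPM to 265, 246 and 251 CPM. These enzymes did not overlap between the labels. The 3 lower members were the hydroxylase P3h2 and the lysyl oxidase genes Loxl3 and Loxl4, at log2 fold changes of -0.47, -0.25 and -0.34. Of 16 basement membrane genes 8 were higher and 2 lower (6 and 2 of 12 off chromosomes 1, 2 and 7). Lama2 rose from 0.797, 0.565 and 0.527 CPM to 4.57, 4.71 and 4.45 CPM, Lama5 from 12.98, 10.7 and 16.3 CPM to 39.2, 35.1 and 43.8 CPM and Col4a1 from 75.5, 69.1 and 78.5 CPM to 181, 196 and 202 CPM. Col4a5 fell, from 24.8, 11.1 and 29.6 CPM to 8.43, 4.31 and 10.9 CPM.

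Matricellular proteins, which signal from the matrix without building it, were called higher in 21 of 38 and lower in 6, proteoglycans counted in (16 and 2 without the cell line term, 15 and 5 of 29 off chromosomes 1, 2 and 7). Fbln1 rose from 0.576, 0.608 and 0.911 CPM to 18.7, 21.3 and 19.7 CPM (log2 fold change 4.83, SE 0.17, adjusted p = 5.35e-13). All 3 tested thrombospondins were higher, Thbs2 from 404, 386 and 399 CPM to 1050.0, 956 and 1035 CPM and Thbs1 from 330.2, 252 and 384 CPM to 594, 531 and 717 CPM. Ccn3 rose from 2.35, 4.13 and 3.16 CPM to 12.8, 22.7 and 11.5 CPM. Spp1 (osteopontin), Bgn (biglycan) and Omd were among the lower ones, and Omd lost its call without the cell line term (adjusted p = 0.229). Matrix proteases and their inhibitors were higher in 21 of 26 and lower in 1 (17 and 1 of 21 off the 3 chromosomes). All 8 tested ADAMTS genes were higher, among them the aggrecanases Adamts4, from 13.9, 11.7 and 16.6 CPM to 26.2, 26.9 and 29.7 CPM, and Adamts5, from 26.3, 28.3 and 27.2 CPM to 55.7, 74.2 and 51.1 CPM. Timp2, an inhibitor of metalloproteinases, was the 1 lower member, from 1867, 1735 and 1916 CPM to 1490.0, 1536 and 1460.0 CPM (log2 fold change -0.30, SE 0.05, adjusted p = 1.79e-04).

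**Figure D3:**
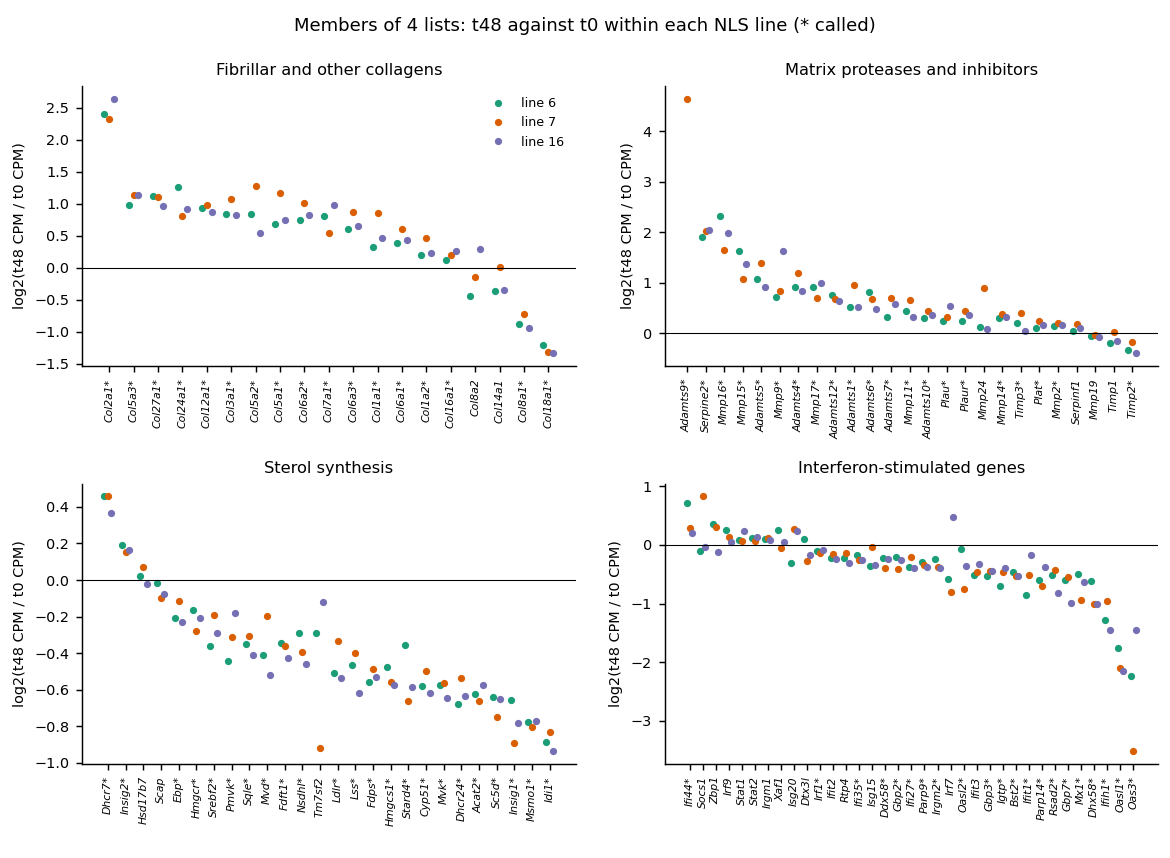
log2 ratio of t48 to t0 CPM within each NLS line (y axis) for the tested members of 4 lists, apart from 1 matrix gene that is not plotted (x axis; asterisks mark genes called over all genes tested; a line with 0 CPM at t0, as for Adamts9 in lines 6 and 16, has no point). All 9 fibrillar collagens lie above 0, and 21 of 26 sterol genes and 20 of 35 interferon-stimulated genes were called lower.

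Contractile and SRF-dependent genes, which depend on actin through the factors SRF and MRTF, were higher in 16 of 26 and lower in 2, Mylk and Actg1. Without the cell line term they were 12 and 0. Acta2 stood at 699, 348 and 777 CPM at t0 and 1836, 1388 and 2047 CPM at t48, with line 7 lowest at both labels and no overlap (log2 fold change 1.59, SE 0.12, adjusted p = 9.45e-05). Actg2, enteric smooth muscle actin, rose from 18.3, 11.8 and 20.4 CPM to 126, 94.6 and 136 CPM (log2 fold change 2.84, SE 0.06, adjusted p = 9.58e-16), and Cnn1, calponin, from 11.8, 5.34 and 12.3 CPM to 45, 34.8 and 48.5 CPM. These genes rose in the LacZ lines too, Acta2 and Cnn1 by 2.11 and 2.15 on the log2 scale and Actg2 2.84-fold. The difference between the responses was called for Actg2 (1.33, adjusted p = 9.84e-09) and not for Acta2 (-0.52, adjusted p = 0.0717) or Cnn1 (0.03, adjusted p = 0.979). Of the whole list, 16 were higher in NLS and the interaction called 2 higher and 4 lower.

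TGF-beta genes were higher in 14 of 23 and lower in 2 (10 and 0 without the cell line term), with all 6 tested ligands higher. Off chromosomes 1, 2 and 7, 8 of 17 were higher and 2 lower, against 14.7% and 25.2% of all genes tested there. Tgfb3 rose from 219, 198 and 159 CPM to 288, 287 and 220.5 CPM (log2 fold change 0.47, SE 0.04, adjusted p = 1.57e-07). Tgfbi, a secreted target, rose from 444, 414 and 414 CPM to 584, 559 and 574 CPM, and the co-receptor Eng from 86.3, 70.1 and 85.6 CPM to 112, 97.8 and 124 CPM. Targets of YAP and TAZ numbered 23, with 11 higher and 5 lower (8 and 4 of 19 off chromosomes 1, 2 and 7). Arhgef17 rose from 21.1, 20.98 and 24.2 CPM to 50.6, 56.5 and 60.4 CPM, and F3, tissue factor, from 21.7, 21.1 and 30.3 CPM to 52.9, 50.3 and 63.5 CPM. Ccn2, a YAP and TGF-beta target, rose from 185, 117 and 267 CPM to 385, 299 and 539 CPM, with an adjusted p of 1.95e-05 with and 0.075 without the cell line term. For Ccn1 these values were 0.0125 and 0.493 at a log2 fold change of 0.20, and its call was also lost without line 6 and without either library of line 7. The lower members included Myof, Dock5 and Wwc1, at log2 fold changes of -0.35, -0.29 and -0.58. Tead2, a partner factor of YAP on chromosome 7, rose from 7, 8.25 and 7.38 CPM to 44.6, 43.1 and 45.2 CPM (log2 fold change 2.55, SE 0.07, adjusted p = 4.15e-14).

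Wnt pathway genes were higher in 14 of 27 and lower in 3 (10 and 1 without the cell line term, 9 and 3 of 20 off chromosomes 1, 2 and 7). Receptors made up 7 of the higher ones, among them Fzd7, from 45.4, 46.95 and 51.3 CPM to 75.8, 76.5 and 75.9 CPM. Both tested antagonists, Dkk3 and Dkk2, rose as well. Dkk3 went from 58.4, 64.2 and 59.7 CPM to 154, 158 and 157 CPM (log2 fold change 1.36, SE 0.05, adjusted p = 2.35e-13), and Nkd1, a feedback inhibitor, from 4.43, 4.56 and 4.03 CPM to 12.1, 14.8 and 11.6 CPM. Notum, the secreted enzyme that inactivates Wnt ligands, fell from 48.2, 50.5 and 36.3 CPM to 17.3, 22.3 and 15.6 CPM. In the LacZ lines Notum also fell (-1.27), and the responses were not called different (adjusted p = 0.952). Of 18 BMP genes 8 were higher and 2 lower (5 and 1 without the cell line term, 6 and 2 of 14 off chromosomes 1, 2 and 7), with Chrdl1, an antagonist, at 4.83, 5.56 and 5.08 CPM at t0 and 18.4, 20.8 and 14.7 CPM at t48.

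Most genes of sterol synthesis were lower. Of 26 tested genes 21 were called lower and 2 higher, with a median log2 fold change of -0.46, against 21% called lower over all genes. Off chromosomes 1, 2 and 7 the counts were 21 lower and 0 higher of 23. The 2 higher members, Dhcr7 and Insig2, lie on chromosomes 7 and 1. Idi1, which isomerises isopentenyl pyrophosphate, stood at 104, 124 and 96.3 CPM at t0 and 56.4, 69.4 and 50.4 CPM at t48. All t48 libraries lay below all t0 libraries (log2 fold change -0.88, SE 0.05, adjusted p = 2.78e-10). Msmo1, a demethylating enzyme of the later pathway, fell from 94.01, 98.3 and 90.5 CPM to 54.8, 56.4 and 53.03 CPM. Insig1, the retention factor of SREBP that is itself an SREBP target, fell from 109, 138 and 100.3 CPM to 69.3, 74.2 and 58.3 CPM (log2 fold change -0.78, SE 0.05, adjusted p = 6.15e-10). No sterol gene reached a 2-fold change. Of the synthetic enzymes 17 of 20 were lower and Dhcr7, the last step to cholesterol, was higher, from 45.3, 48.3 and 46.1 CPM to 62.2, 66.4 and 59.5 CPM. The LacZ median for the list was -0.11, and the interaction called 15 of the 26 lower and 2 higher.

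Fatty acid genes went both ways, with 5 of 25 higher and 9 lower (2 and 6 without the cell line term). The higher share of 20% was near the 22.2% of all genes tested, and the lower share was 36% against 21%. Off chromosomes 1, 2 and 7, 3 of 21 were higher and 9 lower. Scd1, the stearoyl-CoA desaturase, fell from 498, 582 and 495 CPM to 388, 453 and 354 CPM, Acly, which supplies acetyl-CoA, from 295, 291 and 299 CPM to 223, 221 and 238 CPM, and Acsl5 from 212, 219 and 211 CPM to 157, 158 and 158 CPM. Fads1, a desaturase of polyunsaturated fatty acids, rose from 94.9, 109 and 98.9 CPM to 131, 145 and 128 CPM, and Dgat2, which makes triglycerides, from 3.77, 4.08 and 4.55 CPM to 9.13, 10.4 and 10.2 CPM (log2 fold change 1.26, SE 0.14, adjusted p = 1.14e-06). Fads3 and Acsl3 were also higher but lost their calls without the cell line term (adjusted p = 0.153 and 0.308).

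Interferon-stimulated genes were lower in 20 of 35 and higher in 1, with a median of -0.33. Without the cell line term 8 were lower and 0 higher, and without line 7 the lower count was 13. Oasl1, an oligoadenylate synthetase-like protein, stood at 8.55, 9.12 and 6.13 CPM at t0 and 2.54, 2.13 and 1.38 CPM at t48, with no overlap (log2 fold change -1.98, SE 0.17, adjusted p = 1.45e-07). Dhx58, a regulator of RNA sensing, fell from 7.93, 14.8 and 8.15 CPM to 5.18, 7.42 and 4.08 CPM. Line 7 was highest at both labels for Dhx58, and its adjusted p was 9.50e-05 with and 0.0513 without the cell line term. Parp14, a mono-ADP-ribosyltransferase, fell from 17.4, 23.1 and 12.8 CPM to 11.5, 14.3 and 9.897 CPM, with overlapping groups (adjusted p = 0.0734 without that term). The 1 higher member, Ifi44, overlapped between the labels and lost its call without the term (adjusted p = 0.441) and without line 6. In the LacZ lines the median of the list was 0.50, on the opposite side, and the interaction called 26 of 35 lower and 0 higher. Oas, Ifit and Gbp genes have near-identical copies, so the division of reads among them is uncertain.

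MHC class I and antigen presentation genes were mixed, with 4 of 21 higher and 7 lower (4 lower without line 16). B2m, the shared light chain, rose from 386, 338 and 409 CPM to 493, 444 and 470.1 CPM, and Pdia3, of the peptide-loading complex, from 847, 869.5 and 841 CPM to 1049, 1053 and 1034 CPM. Both lie on chromosome 2. H2-D1, a heavy chain, fell from 96.7, 87.3 and 95 CPM to 71.97, 69.5 and 77.3 CPM, and Tapbp, tapasin, from 225, 238 and 226 CPM to 180.0, 202 and 178 CPM. Both lie on chromosome 17. Of 19 chemokine and cytokine genes 2 were higher and 7 lower (3 lower without the cell line term). Cxcl12, a stromal chemokine, rose from 69.1, 55.7 and 101 CPM to 144, 109 and 186 CPM (log2 fold change 0.97, SE 0.06, adjusted p = 1.12e-09). Il34, a ligand of the CSF1 receptor, fell from 23.5, 19.7 and 28.2 CPM to 13.4, 10.8 and 13.8 CPM. Ptgs2 and Ptgs1, the inducible and constitutive cyclooxygenases, went opposite ways, Ptgs2 from 91.9, 69.5 and 90.8 CPM to 174, 169 and 191 CPM and Ptgs1 from 229, 249 and 225 CPM to 193, 203 and 198 CPM.

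Of 17 enzymes and G proteins of cyclic AMP turnover 7 were higher and 4 lower, with the lower share near that of all genes (21%). Off chromosomes 1, 2 and 7 they were 3 and 4 of 12 (over all 17, 5 and 2 without the cell line term, and 2 lower without line 7 or without line 16). None of the 5 tested adenylyl cyclases was higher and 3 were lower. Adcy7 fell from 120.4, 116 and 121 CPM to 90.4, 84.5 and 92.4 CPM (log2 fold change -0.42, SE 0.04, adjusted p = 6.24e-07). Adcy9 fell by 0.26 on the log2 scale but was not called without line 7 or line 16 or without the cell line term (adjusted p = 0.25). Gnas, the stimulatory G protein subunit, rose from 736, 667 and 751 CPM to 917, 875 and 939.9 CPM (log2 fold change 0.34, SE 0.04, adjusted p = 2.12e-06). Of 9 phosphodiesterases 6 were higher and 1 lower. Pde8a rose from 186, 164 and 178 CPM to 234, 205 and 225 CPM, and Pde4a fell from 24.4, 25.5 and 25.4 CPM to 18.9, 18.4 and 19.7 CPM. Gnas lies on chromosome 2 and Pde8a on chromosome 7, where many genes were called higher. Pde4b was at 11.7, 17.6 and 1.68 CPM at t0 and 19.8, 26.8 and 5.77 CPM at t48, higher in each line but with groups that overlapped (adjusted p = 0.538 without the cell line term). In the LacZ lines Pde4b rose more, by 2.79 on the log2 scale, and the interaction was called (adjusted p = 6e-04).

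Of 17 PKA subunits, inhibitors, anchors and other effectors 4 were higher and 5 lower (2 and 3 without the cell line term, and 3 lower without line 6 or without line 7). These shares of 23.5% and 29.4% were near the 22.2% and 21% of all genes tested. Off chromosomes 1, 2 and 7, 2 of 14 were higher and 5 lower. Among PKA subunits both tested catalytic genes and 2 of 3 regulatory genes were lower. Prkaca, the main catalytic subunit, fell from 108, 102 and 102 CPM to 92.1, 90.4 and 85.8 CPM (log2 fold change -0.22, SE 0.05, adjusted p = 0.00102), and Prkar2b from 53.8, 65.2 and 51.9 CPM to 43.2, 48.6 and 42.3 CPM. Of 9 A-kinase anchors, which place PKA in the cell, 3 were higher and 1 lower. Akap6 rose from 6.56, 5.73 and 6.57 CPM to 11.96, 8.89 and 12.6 CPM, and Akap7 fell from 7.35, 8.82 and 8.48 CPM to 4.47, 5.87 and 5.24 CPM. Neither anchor overlapped between the labels. Of 14 CREB, CRTC and SIK genes 7 were higher and 4 lower (4 and 4 of 11 off chromosomes 1, 2 and 7). Crtc3, a CREB coactivator, rose from 21.2, 19.5 and 19.5 CPM to 24.7, 26.6 and 29.2 CPM and the acetyltransferase Crebbp from 40.3, 46.1 and 41.4 CPM to 49.05, 54.5 and 50.9 CPM. Creb3l1, an ER-bound factor that drives collagen genes, rose from 178, 145 and 180.0 CPM to 244, 230.1 and 269 CPM (log2 fold change 0.57, SE 0.05, adjusted p = 3.83e-08). Crtc3 lies on chromosome 7 and Creb3l1 on chromosome 2, while Crebbp lies on chromosome 16. Atf1, a close relative of Creb1, fell from 142, 162 and 150.1 CPM to 114, 127 and 117 CPM. Sik2 and Sik3, kinases that hold CRTC proteins in the cytoplasm and are inhibited by PKA, were lower, Sik2 from 24.2, 31.4 and 26.3 CPM to 20.99, 23.1 and 19.9 CPM and Sik3 from 108, 106 and 101 CPM to 98, 93.5 and 87.6 CPM.

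The median log2 fold change of 26 cAMP and CREB targets was 0.26. Of them 10 (38.5%) were higher and 5 (19.2%) lower, against 22.2% and 21% of all genes tested. Off chromosomes 1, 2 and 7 they were 6 and 4 of 18, and without the cell line term 6 and 1 of 26. Leaving out any 1 line gave 3 lower. Btg2, shown above with its CRE, stood at 4.25, 4.13 and 5.51 CPM at t0 and 8.99, 11.2 and 7.99 CPM at t48, with no overlap (log2 fold change 1.03, SE 0.15, adjusted p = 3.53e-05). Ptgs2 and Per2, like Btg2 on chromosome 1, rose as well, Per2 from 16.4, 18.98 and 17.2 CPM to 30.3, 35.8 and 36.5 CPM (log2 fold change 0.96, SE 0.08, adjusted p = 4.23e-08). Inhba, an activin subunit, rose from 38.7, 39.05 and 50.2 CPM to 59.7, 50.9 and 63.5 CPM. Klf4, a zinc finger factor, fell from 131, 129.6 and 135 CPM to 83.8, 90.9 and 90.1 CPM (log2 fold change -0.58, SE 0.04, adjusted p = 8.66e-09). Areg stood at 5.01, 9.16 and 1.97 CPM at t0 and 2.26, 2.89 and 1.27 CPM at t48; it fell in each line, the groups overlapped, and its call was lost without line 6, without the t48 library of line 7 and without the cell line term (adjusted p = 0.131). Egr1 fell by 0.25 on the log2 scale and lost its call without line 16 and without that term (adjusted p = 0.0536). The classical targets Nr4a1 and Crem did not pass. Nr4a1 was at 13.6, 3.605 and 4.22 CPM at t0 and 11.2, 8.76 and 3.86 CPM at t48 (adjusted p = 0.563) and Crem at 2.13, 1.87 and 1.49 CPM at t0 and 2.07, 2.09 and 2.12 CPM at t48 (adjusted p = 0.45). Line 7 alone rose for Nr4a1, and its groups overlapped.

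Clock genes were higher in 10 of 19 and lower in 1, the activator Clock, which fell from 92.1, 111 and 97.2 CPM to 69.7, 78.4 and 66.05 CPM (log2 fold change -0.49, SE 0.05, adjusted p = 2.52e-07). The repressors made up 6 of the higher ones and none of the lower ones. Cry2 rose from 14.6, 12.99 and 16.8 CPM to 23.02, 21.5 and 24.6 CPM, and Rora, a receptor that activates Bmal1, from 0.709, 0.912 and 0.431 CPM to 5.04, 7.47 and 3.599 CPM (log2 fold change 2.95, SE 0.24, adjusted p = 2.68e-08). All 3 lines moved the same way for these genes. Per2 and Cry2 lie on chromosomes 1 and 2. Off chromosomes 1, 2 and 7, 7 of 14 clock genes were higher and 1 lower.

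More proliferation genes were lower than higher. Of 33 G1/S and replication genes 18 were lower and 4 higher, and of 33 G2/M genes 14 were lower and 3 higher. Without the cell line term these counts were 13 and 1, and 6 and 0. Without line 7 the lower G2/M count was 8, and without line 6 or line 16 the higher counts were 2 for G1/S and 1 for G2/M. Without the t48 library of line 7, 5 G2/M genes were higher. All 7 higher genes lie on chromosomes 2 or 7. Off chromosomes 1, 2 and 7, 17 of 24 G1/S genes and 12 of 21 G2/M genes were lower, and none was higher. Ccne1, cyclin E1 on chromosome 7, rose from 31.7, 31.9 and 33.7 CPM to 53, 48.3 and 51.8 CPM (log2 fold change 0.65, SE 0.06, adjusted p = 5.56e-08). Tyms, thymidylate synthase, fell from 84.1, 88.04 and 84.3 CPM to 70.04, 66.1 and 66.4 CPM, and E2f2, a factor that drives S phase, from 6.51, 6.25 and 5.37 CPM to 3.11, 2.22 and 3.65 CPM. Birc5, survivin of the chromosomal passenger complex, fell from 168, 170.4 and 163 CPM to 136, 133 and 136 CPM (log2 fold change -0.31, SE 0.04, adjusted p = 6.11e-06). The list medians were small, at -0.14 for G1/S and -0.12 for G2/M. In the LacZ lines the G2/M list had a median of 0.24, and the interaction called 24 of 33 lower and 1 higher. Ccnd1, cyclin D1, fell from 706, 825 and 734 CPM to 591, 688 and 591 CPM, and Cdkn1b, the CDK inhibitor p27, rose from 22.1, 27.97 and 21.1 CPM to 32.8, 34.8 and 27.1 CPM. Cdkn1a, the inhibitor p21, did not pass (38.6, 22.1 and 44.1 CPM at t0 and 37.9, 32.3 and 42.6 CPM at t48; adjusted p = 0.324). Of 22 p53 targets 8 were higher and 5 lower (5 and 5 of 16 off chromosomes 1, 2 and 7, 5 higher without the cell line term, 3 lower without line 7), with Pmaip1, a proapoptotic BH3 protein, at 0.532, 0.174 and 0.623 CPM at t0 and 5.65, 4.84 and 7.46 CPM at t48 (log2 fold change 3.77, SE 0.26, adjusted p = 2.67e-09). For p53 targets the lower share of 22.7% was near the 21% of all genes tested, and the higher share was 36.4% against 22.2%.

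Respiratory chain genes of the nucleus were lower in 15 of 46 and higher in 5 (12 and 2 without the cell line term, and 3 higher without line 7 or line 16). The 5 higher genes all lie on chromosomes 1, 2 or 7, and elsewhere 15 of 33 were lower and 0 higher. Atp5a1, of the ATP synthase, fell from 734, 707 and 715 CPM to 629.8, 587 and 618 CPM (log2 fold change -0.23, SE 0.04, adjusted p = 3.28e-04), and Sdhd, of complex II, from 91.9, 95.2 and 89.2 CPM to 81.7, 74 and 75.6 CPM. Uqcrc2, of complex III on chromosome 7, rose from 159, 162 and 158 CPM to 185, 186 and 177 CPM. Of the 13 mRNAs of mitochondrial DNA none was called by edgeR, with a median of -0.32. At an unadjusted p below 0.05 there were 4 lower and 0 higher, DESeq2 called 3 lower, and a fit of the 6 compared libraries alone called 8 lower. mt-Co3, a subunit of cytochrome oxidase, was at 533, 734 and 231 CPM at t0 and 208, 199 and 47.4 CPM at t48, lower in all 3 lines (adjusted p = 0.057). Line 16 was the lowest at both labels, and the labels did not overlap.

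Genes of the oxidative stress and NRF2 list were lower in 16 of 29 and higher in 5 (10 and 3 without the cell line term). Aldh3a1, an aldehyde dehydrogenase, fell from 152, 239 and 136 CPM to 43.4, 72.7 and 44.7 CPM (log2 fold change -1.71, SE 0.08, adjusted p = 2.57e-08). Gsr, glutathione reductase, fell from 75.6, 84.5 and 70.8 CPM to 53.2, 52.1 and 52.03 CPM, and Sod3, the extracellular superoxide dismutase, from 339, 423 and 308 CPM to 222, 273 and 201 CPM. Nqo1, a quinone reductase widely read as an NRF2 target, went the other way, from 27.2, 31.2 and 26.8 CPM to 98.2, 88.1 and 88.1 CPM (log2 fold change 1.69, SE 0.07, adjusted p = 5.90e-11). Txnrd1, another NRF2 target, was slightly higher (0.24). ATF4 targets were higher in 11 of 28 and lower in 1 (Psph), but in 4 and 0 without the cell line term and in 5 without line 7. Off chromosomes 1, 2 and 7 they were higher in 7 of 20 and lower in 1. Atf5 rose from 146, 121 and 152 CPM to 191, 197 and 202 CPM, and Pycr1, of proline synthesis, from 34.8, 26.02 and 38.9 CPM to 45.2, 47.2 and 50.97 CPM. Glycolysis and hypoxia genes were higher in 9 of 35 (25.7%) and lower in 8 (22.9%), shares near the 22.2% and 21% of all genes tested (5 higher without the cell line term, 6 higher of 29 off chromosomes 1, 2 and 7), with Pfkfb3 at 24.2, 23.5 and 24.1 CPM at t0 and 46.4, 46.5 and 44.1 CPM at t48 and Aldoc at 6.51, 9.95 and 7.29 CPM at t0 and 2.35, 2.89 and 3.33 CPM at t48. Of 16 ER chaperones 5 were higher and 1 lower, and of 13 tested heat shock proteins 4 were higher and 7 lower. The difference between these groups was not tested. Pdia4 rose from 169, 174 and 170.1 CPM to 224, 202 and 217 CPM, and Dnajb1 fell from 58.7, 50.04 and 54.1 CPM to 47.5, 40.9 and 43.7 CPM. Over both kinds 9 of 29 were higher and 8 lower, and without line 16 these counts were 5 and 4. The lower count was 5 without line 6 or line 7.

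**Figure D4:**
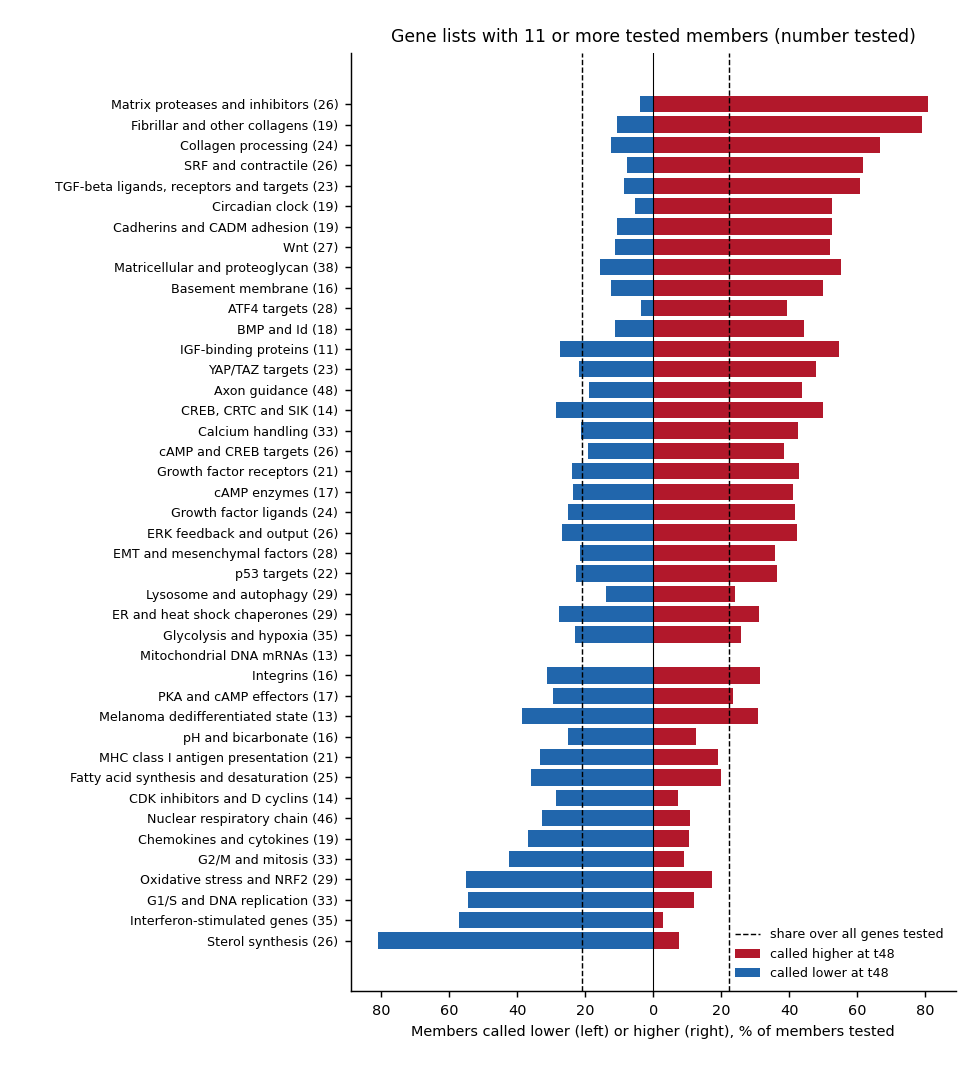
Share of tested members called higher (right) or lower (left) at t48 for the lists with 11 or more tested members (x axis: percent of members; the number tested stands in brackets; dashed lines: 22.2% higher and 21% lower over all genes tested). Matrix proteases and collagens stand at the top, and G1/S genes, interferon-stimulated genes and sterol synthesis at the bottom.

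Several IGF genes rose. Igf2 rose from 0.6202, 0.478 and 0.575 CPM to 7.96, 7.25 and 7.94 CPM (log2 fold change 3.78, SE 0.22, adjusted p = 2.96e-10), Igf1 from 1.46, 0.738 and 1.05 CPM to 10.6, 9.6 and 9.103 CPM, and the receptor Igf1r from 35.6, 40.5 and 37.2 CPM to 52.5, 62 and 48.2 CPM. Igfbp5, a binding protein held in the matrix, stood at 48.95, 24.5 and 33.9 CPM at t0 and 796, 673 and 592 CPM at t48 (log2 fold change 4.29, SE 0.16, adjusted p = 5.75e-06). Igfbp2 rose from 3.81, 1.82 and 3.74 CPM to 39.9, 37.3 and 34.8 CPM and Igfbp3 from 382, 479 and 339 CPM to 737, 855 and 661 CPM. No t48 library of these 6 genes lay at or below a t0 library. Of 11 IGF-binding genes 6 were higher and 3 lower (1 lower without the cell line term, and likewise without line 16). These were 54.55% and 27.27%, against 22.2% and 21% of all genes tested. Off chromosomes 1, 2 and 7, 4 of 8 were higher and 3 lower. In the LacZ lines Igf1 also rose (2.77), with no call for the difference (adjusted p = 0.953), while Igfbp5 fell (-2.92; interaction adjusted p = 9.21e-06).

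Lifr and Osmr, receptors that signal through gp130, both rose. Lifr, the leukemia inhibitory factor receptor, went from 4.16, 4.26 and 3.55 CPM to 36.8, 47.3 and 30.1 CPM (log2 fold change 3.24, SE 0.12, adjusted p = 6.16e-13), and Osmr, the oncostatin M receptor, from 17.9, 19.5 and 18.7 CPM to 61.8, 70.1 and 54.4 CPM (log2 fold change 1.73, SE 0.10, adjusted p = 2.35e-09). Both lie on chromosome 15. Of 21 growth factor receptors 9 were higher and 5 lower (3 lower without the cell line term), and of 24 ligands 10 were higher and 6 lower (7 and 3 without the cell line term, 6 and 6 of 20 off chromosomes 1, 2 and 7). The lower shares of 23.8% and 25% were near the 21% of all genes tested. Off these chromosomes 6 of 16 receptors were higher and 4 lower. Vegfa rose from 175, 137 and 144 CPM to 224, 190.1 and 189 CPM and Nrg1, a neuregulin, from 55.9, 52.3 and 55.6 CPM to 79.5, 88.8 and 79.6 CPM. Fgf2 fell from 21.2, 20.8 and 21.8 CPM to 12, 9.96 and 11.01 CPM and Ereg, epiregulin, from 9.13, 12.2 and 6.47 CPM to 4.24, 5.56 and 3.97 CPM. Flt1, a VEGF receptor, fell from 36.7, 43.6 and 34.7 CPM to 24.7, 31.4 and 25.03 CPM. ERK feedback and output genes were higher in 11 of 26 and lower in 7 (7 and 5 without the cell line term, 4 lower without line 16, 7 and 7 of 21 off chromosomes 1, 2 and 7). Spry1 and Dusp4, which dampen ERK signalling, rose, Dusp4 from 2.83, 1.65 and 2.92 CPM to 4.89, 3.96 and 5.03 CPM. Fosl1, an AP-1 subunit, fell from 194, 199.6 and 182 CPM to 119.6, 141 and 119.8 CPM (log2 fold change -0.60, SE 0.05, adjusted p = 1.27e-08), and Dusp5 from 19.9, 15.3 and 23.4 CPM to 12.5, 12.4 and 15.2 CPM.

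Guidance and adhesion genes changed in both directions, with more of them higher. Of 48 axon guidance genes 21 were higher (43.75%) and 9 lower (18.75%), against 22.2% and 21% of all genes tested. The lower share was thus near that of all genes. Off chromosomes 1, 2 and 7, 18 of 43 were higher and 9 lower. The transmembrane semaphorins Sema6d and Sema6a rose, Sema6d from 0.3101, 0.869 and 0.144 CPM to 7.296, 9.2 and 5.398 CPM and Sema6a from 0.6202, 0.565 and 1.198 CPM to 6.03, 5.42 and 4.76 CPM. Ntn4, a netrin of basement membranes, fell from 54.6, 52.2 and 52.8 CPM to 23.3, 23.6 and 19.4 CPM (log2 fold change -1.26, SE 0.07, adjusted p = 1.23e-10), and Sema7a from 39.6, 27.3 and 41.2 CPM to 18.9, 15.6 and 20.9 CPM. Of 8 tested plexins and neuropilins 5 were higher and none lower. Of 19 cadherin and CADM-type genes 10 were higher (52.63%) and 2 lower (10.53%, under the share of all genes), Cdh13 and Pcdh17. Off chromosomes 1, 2 and 7, 9 of 17 were higher and 2 lower. Pcdh17 lost its call without the cell line term (adjusted p = 0.212) and without line 7 or 16, and Cdh13 without line 16. Fat4, a giant protocadherin, rose from 2.44, 3.301 and 1.77 CPM to 9.04, 11.4 and 8.997 CPM, Mcam from 3.01, 1.56 and 2.35 CPM to 7.77, 6.04 and 9.47 CPM, and Cdh2, N-cadherin, from 110.1, 104 and 112 CPM to 158, 144 and 154 CPM (log2 fold change 0.48, SE 0.04, adjusted p = 3.02e-08). Integrins were balanced at 5 higher and 5 lower of 16. Itga5, a fibronectin receptor chain, rose from 757, 632 and 845 CPM to 989.9, 809.7 and 1176 CPM, and Itga6, a laminin receptor chain, fell from 87.4, 118 and 85.9 CPM to 55.3, 65.6 and 55.4 CPM (log2 fold change -0.72, SE 0.05, adjusted p = 6.11e-09).

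Calcium handling genes were higher in 14 of 33 and lower in 7 (10 and 3 without the cell line term, 4 lower without line 7, 9 and 7 of 26 off chromosomes 1, 2 and 7). Their lower share of 21.2% was near the 21% of all genes tested, and their higher share was 42.4% against 22.2%. Besides Slc8a1, Cacna1g, a T-type channel, rose from 3.81, 4.47 and 4.602 CPM to 17.7, 19.7 and 16.9 CPM (log2 fold change 2.08, SE 0.10, adjusted p = 5.13e-11), and Trpv2 from 21.3, 16.8 and 22.96 CPM to 30.6, 27.6 and 32.1 CPM. Atp2b1, the plasma membrane calcium pump, fell from 126, 131 and 127 CPM to 107, 107 and 108 CPM, and Stim2, a store sensor, from 56.8, 52.8 and 59.7 CPM to 49.3, 46.9 and 46.6 CPM. Of 16 genes of pH and bicarbonate handling, the other input of sAC, 2 were higher and 4 lower (1 and 3 without the cell line term, and 1 and 2 without line 6 or without line 16). The lower share of 25% was near that of all genes tested. Car6, a secreted carbonic anhydrase, fell from 24.9, 14.9 and 29 CPM to 8.24, 5.69 and 8.68 CPM (log2 fold change -1.58, SE 0.10, adjusted p = 1.30e-09), and Car5b, the mitochondrial one, from 66.98, 68.3 and 65.4 CPM to 40.6, 37.6 and 40.01 CPM. Slc4a3, an anion exchanger on chromosome 1, rose from 4.83, 4.95 and 5.8 CPM to 10.7, 8.45 and 10.7 CPM. Of 8 tested Hoxb genes 3 were higher and 1 lower, with Hoxb9 at 43.2, 32.4 and 42.04 CPM at t0 and 88.8, 76.4 and 84.6 CPM at t48 (log2 fold change 1.09, SE 0.05, adjusted p = 4.55e-11). The lower one, Hoxb7, lost its call without line 7 or line 16 and without the cell line term (adjusted p = 0.0961). Lysosome and autophagy genes stood near the background, with 7 of 29 higher and 4 lower (4 and 0 without the cell line term, 3 higher without line 16, and 2 and 1 lower without lines 6 and 7).

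Mesenchymal factors and markers of the dedifferentiated melanoma state were called in both directions. Of 28 mesenchymal factors 10 were higher and 6 lower (6 and 5 of 20 off chromosomes 1, 2 and 7). The lower share of 21.4% was near the 21% of all genes tested, and the higher share was 35.7% against 22.2%. Snai2 rose from 39.6, 40.6 and 47.3 CPM to 58.7, 64.8 and 65.7 CPM, while Osr1 fell from 21.6, 24.5 and 27.1 CPM to 14.97, 18.6 and 15.6 CPM. Of 13 markers of the dedifferentiated state 4 were higher and 5 lower (3 lower without the cell line term). Tnc, tenascin C, rose from 41.02, 18.7 and 44.4 CPM to 162, 100.5 and 167 CPM, with line 7 lowest at both labels and no overlap (log2 fold change 2.09, SE 0.14, adjusted p = 6.12e-05). Axl, a receptor kinase of that state, fell from 359, 360.3 and 379 CPM to 314, 325 and 340.3 CPM.

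The LacZ lines carry the same doxycycline label at t48, and the difference between the 2 responses was tested with an interaction term. In LacZ 4194 genes (35.9%) were called. Of the genes called in both contrasts 991 had the same direction and 1141 opposite directions. The interaction called 4770 genes (40.8%), 2365 with a more positive NLS response (20.2%) and 2405 with a more negative one (20.6%). Without the cell line term it called 2971, and without LacZ line 10 3340. The LacZ response rests on 2 lines, and its own count was 2248 without line 10 and 2613 without line 12.

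Among genes of mean CPM 2 or more that changed in 1 direction in all 3 NLS lines and in both LacZ lines, the 8 largest called differences each way were followed up. This leaves out called genes with no reads in a LacZ line at both labels, such as Adam23, Zfp521 and Vat1l. Most of the 16 moved in opposite directions in the lines, or were near 0 in one of them. Setbp1, a chromatin-associated factor, rose in NLS from 9.66, 11.8 and 9.39 CPM to 28.3, 32.8 and 27.7 CPM, while in LacZ it was at 23.1 and 23.4 CPM at t0 and 0.167 and 0.154 CPM at t48. Robo1, the Slit receptor, rose in NLS from 17.6, 19.3 and 16.4 CPM to 31.6, 35.1 and 30.8 CPM, and in LacZ went from 1.72 and 2.26 CPM to no reads. Dpep1, a membrane dipeptidase, rose in NLS from 0.177, 0.261 and 0.479 CPM to 11.9, 9.29 and 12.8 CPM and was at 1.72 and 2.36 CPM at t0 and 0.278 and 0.411 CPM at t48 in LacZ. The t48 groups of these genes lay on opposite sides of their t0 groups. Prelid2 was near 0 only at NLS t0 and was at 30.4 and 33.5 CPM at t0 and 47.3 and 43.4 CPM at t48 in LacZ. Spats2l, Zdhhc15, Spry1 and Anks6 were the other 4 of these 8 with a more positive NLS response. In the other direction, Tspan7, a tetraspanin, fell in NLS from 19.1, 20.2 and 20.2 CPM to 5.32, 5.02 and 4.76 CPM and rose in LacZ, at 11.9 and 10.98 CPM at t0 and 54.02 and 53.6 CPM at t48. Has1 fell in NLS and was at 0.377 and 0.501 CPM at t0 and 3.79 and 4.31 CPM at t48 in LacZ. Slurp1 was at 2.64 and 2.56 CPM at t0 and 4.29 and 5.59 CPM at t48 in LacZ, and Unc5c at 1.29 and 1.103 CPM at t0 and 1.84 and 1.797 CPM at t48. For Ptx3, Cacna1a, Cacna1c and Akr1c13 the LacZ t0 libraries had 0 to 0.215 CPM, so the fitted values of those differences are no bounds. Ptx3, a pentraxin of the matrix, rose in NLS from 3.23, 2.48 and 3.403 CPM to 15.5, 13.5 and 14.8 CPM. Cacna1a and Akr1c13 were not called in NLS (adjusted p = 0.128 and 0.655).

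**Figure D5:**
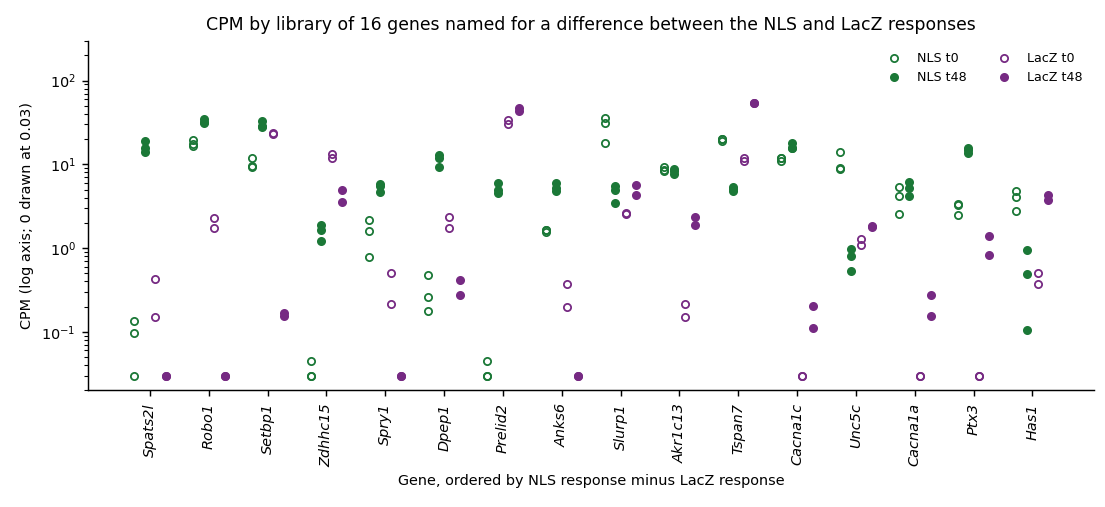
CPM by library on a log axis (0 drawn at 0.03) for 16 genes called for a difference between the NLS and LacZ responses, the 8 largest each way among those of mean CPM 2 or more with 1 direction of change in every line of each construct (green: NLS lines 6, 7 and 16; purple: LacZ lines 10 and 12; open: t0; filled: t48). Setbp1, Dpep1, Tspan7 and Has1 move in opposite directions in NLS and LacZ, while the NLS labels overlap for Cacna1a and Akr1c13.

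Many matrix genes differed between the responses. The interaction called 11 of 19 collagens, 20 of 26 matrix proteases and inhibitors, 16 of 38 matricellular genes and 15 of 27 Wnt genes higher, and 2, 2, 3 and 1 lower. The LacZ medians of these lists were -0.13, -0.18, -0.23 and -0.35. For cAMP and CREB targets the interaction called 10 of 26 higher and 5 lower. Over all genes tested it called 20.2% higher and 20.6% lower, so the lower share of these targets was near that of all genes. Btg2 differed by 0.96 (adjusted p = 0.00228), Ptgs2 by 1.38 and Per2 by 1.15, whereas Klf4 differed by -0.65 (adjusted p = 1.23e-06). Prkaca did not pass for a difference (-0.11, SE 0.07, adjusted p = 0.228), and neither did Adcy7 (-0.15, SE 0.07, adjusted p = 0.0864). Construct, cell line and chromosome pattern differ together between the NLS and LacZ lines, and the share of each in these differences cannot be told apart.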

How the data were processed

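Trizol was used to extract RNA and a stranded Truseq kit to prepare the 13 libraries, per the labels' protocols. Salmon 1.2.0 and the build GRCm38 are named in the submitters' processing notes. The transcript set is not given in the sources used here. The deposited tables hold estimated counts and TPM per transcript. TPM as deposited by the authors scales by transcript length and was used to compare levels between genes.

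Estimated counts were summed over transcripts to 35498 genes, which took in 115977 of 116546 transcripts (99.51%), and the sums were rounded. Transcripts without a gene held 0.121 to 0.165% of the estimated reads. Totals were 18512887 to 22584628 reads per library, and CPM is per 1e+06 of these reads after TMM scaling. Genes of 1 CPM or more in at least 3 of the 6 compared libraries were tested (11687). Counts were modelled with edgeR 4.0.16 (R 4.3.3) by quasi-likelihood, with TMM scaling and a term for each cell line. All 13 libraries entered and left 5 residual degrees of freedom. Adjusted p-values are Benjamini-Hochberg over all genes tested, and 0.05 was the threshold. The LacZ response and the interaction came from the same fit. Standard errors were derived from the fold change and the F statistic.

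Line numbers in the titles pair the libraries, which come from the same cell lines. Deviations from the group means (log2 of CPM + 1) correlated at 0.249, 0.505 and 0.507 across labels within lines 6, 7 and 16, and at -0.514 to 0.0657 between lines. Such deviations cancel out over the lines of a group, so positive values within lines go with negative ones between lines. Replicates of a group differed beyond sampling noise, with chi-square per degree of freedom of 7.52 to 26.3. Genes are named by a rule: the 14 largest increases and decreases with mean CPM of 2 or more, the 8 largest by TPM each way, up to 4 higher and 3 lower members of each list by p, the 8 largest called interaction terms each way with mean CPM of 2 or more and 1 direction of change in all 3 NLS lines and in both LacZ lines, and 8 genes always named. Other names in the text are members of a count given with them. The comparison, the gene lists and the rule were chosen with earlier results of these data known.

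Alternatives were RLE scaling, DESeq2 1.42.0, other filters, no cell line term, only the compared libraries, each line or library left out, and, added after seeing the data, upper-quartile scaling. Genes with near-identical copies (Oas, Ifit, Gbp, H2, ferritin and actin families) share reads that Salmon divides by estimate, so their values are uncertain. Promoter windows are from RefSeq. The fitting script was tested on simulated counts for this comparison, with few genes changed, and there the share of false calls was above the threshold, so calls close to it are less certain. The values of 1 gene are not reported here.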

Additional observations from a re-analysis of the deposited data

Results flagged for a closer look

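The NLS and LacZ responses differed at an adjusted p below 0.05 in edgeR's interaction test for 4770 genes. Of those with mean CPM of 2 or more and 1 direction of change in every line of each construct, the 8 largest each way are given as the NLS minus the LacZ log2 fold change. With a more positive NLS response these were Spats2l at 13.22, Robo1 at 9.24, Setbp1 at 8.65 and Zdhhc15 at 7.81. They continued with Spry1 at 7.78, Dpep1 at 7.74, Prelid2 at 7.43 and Anks6 at 7.30. With a more negative NLS response they were Has1 at -6.16, Ptx3 at -5.26, Cacna1a at -4.79 and Unc5c at -4.36. The remaining ones were Cacna1c at -4.27, Tspan7 at -4.21, Akr1c13 at -3.58 and Slurp1 at -3.52. Spats2l, Robo1, Spry1 and Anks6 had no reads in the LacZ t48 libraries, and Cacna1a, Cacna1c and Ptx3 none in the LacZ t0 libraries, so these fitted values depend on the prior count and are no bounds. The groups compared hold 2 or 3 libraries, too few to test for a library far from the others.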

How the results depend on the processing

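The count of 5046 genes called between the NLS labels was 5036 with RLE scaling, 3792 with DESeq2, 5188 of 13044 with edgeR's own filter, 5141 of 20148 with no filter, 5163 with only the compared libraries and 5126 with upper-quartile scaling. No scaling moved the share of higher calls by over 10 points. Without the replicate block, that is without the cell line term, 3302 genes were called here, 2352 for LacZ and 2971 for the interaction, and 3292 of the 5046 (65.24%) were kept. With each line or library left out in turn the counts ran from 3673 to 4529 for NLS, from 2237 to 2621 for LacZ and from 3334 to 4700 for the interaction. A fit that leaves 1 LacZ library in a group assumes that it varies like the other groups. Of 305 named genes called between the NLS labels, 59 lost the call without the block, 12 with DESeq2, and 19, 18 and 27 without lines 6, 7 and 16, and none reversed. The sterol list stayed at 20 or 21 genes lower in every setting run, and the interferon-stimulated list ran from 8 to 20. Among the named genes, direction turned only for those that were not called. Adcy10 was at 0.067 with DESeq2 and, with lines or libraries left out, ran from -0.12 to 0.062, the last without the t48 library of line 6. Nr4a1 ran from -0.21 without line 7 to 0.65 without line 6. Cdkn1a ran from -0.030 without line 7 to 0.25 without line 16. The cause of these changes was not tested. Genes under 1 CPM at t0 rest on a few reads, so their fold changes are imprecise.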
